A study of Solanum tuberosum with 12 samples.

Results

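The miR395 group of potato consisted of 15 of the 324 predicted miRNA loci in the deposited list. Its members were chosen by sequence alone. Every entry was taken whose mature sequence differed from PotatoMir1003902286 or PotatoMir1005868687 by at most 3 mismatches or overhanging bases in the best ungapped alignment. This gave 3 of the 222 distinct mature sequences. PotatoMir1003902287 is named miR395 by the study, and the other sequences, with fewer reads than its minimum, are not in its table of homologues. The largest difference inside the limit was 1 base. Outside the limit the nearest were 3 sequences with 10 differences, PotatoMir1005303009, PotatoMir1005779550 and PotatoMir1005931858.

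The reads came from 12 libraries of *Solanum tuberosum* group *Andigena* clone ADG573, a single clone that tuberizes in short days (SD) but not in long days (LD). There were 3 libraries each of SD swollen stolon, SD stolon, SD leaf and LD leaf. All plants were propagated *in vitro*, grown for 4 weeks under LD in a glasshouse and moved to cabinets at 20 °C. The labels give 8 days in the cabinets for every group, while the study's methods name later days for stolon. The authors pooled all libraries before the prediction, and the deposited list gives 1 read number for each mature sequence. Values of single libraries were not analysed here, so no level has an error between replicates and no tissue or day length was compared. The list holds no marker of a tissue, and the labelled organs were not tested against it.

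miR395 is a conserved plant miRNA of sulfur nutrition. In *Arabidopsis* it accumulates when sulfate is scarce, and it directs the cleavage of mRNAs for ATP sulfurylases, which activate sulfate for assimilation, and for a low affinity sulfate transporter, which moves sulfate between organs. As in other miRNA genes, a hairpin precursor is cut by Dicer-like 1 into a duplex of the mature sequence and its passenger, or star, sequence. In many plants miR395 genes lie in tandem groups.

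The 3 mature sequences are shown because they define the group. Capitals mark the seed, bases 2 to 8 from the 5′ end, which was the same in all of them and in none of the other 219 sequences. DNA letters are used, as in the deposited list.
PotatoMir1003902287: cTGAAGTGtttgggggaactc
PotatoMir1003902286: cTGAAGTGtttgggggaact
PotatoMir1005868687: tTGAAGTGtttgggggaactc

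PotatoMir1003902287 had 21 nt and PotatoMir1003902286 was its first 20 nt. PotatoMir1005868687 had 21 nt and differed from PotatoMir1003902287 only in its first base, which was T and not C. A first base of C was found in 15 of the 222 distinct sequences (6.76%), a first base of T in 94 (42.3%) and a first base of A in 102 (45.9%). The 5′ base matters for the loading of a small RNA into the different Argonaute proteins in *Arabidopsis*.

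Few reads were found for any of the sequences. PotatoMir1003902287 had 15 reads over all libraries, with a 95% Poisson interval of 8.40 to 24.7. PotatoMir1005868687 had 4 reads (1.09 to 10.2) and PotatoMir1003902286 had 3 reads (0.619 to 8.77). Reads were amplified and carried no molecular identifiers, so such intervals hold for counting error and nothing more. PotatoMir1003902287 had more reads than PotatoMir1003902286 (exact two-sided binomial test against equal numbers, p = 0.00754, adjusted over 3 pairs p = 0.0226) and than PotatoMir1005868687 (exact test, p = 0.0192, adjusted p = 0.0288). For the 2 rare sequences no difference was detectable at this depth (exact test, p = 1). These tests too hold for counting error only and carry no variation between libraries or plants. They compare reads within the pooled libraries and not conditions, and they take no account of the number of loci of a sequence.

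The group had 22 reads (13.8 to 33.3), or 0.00231% of the 954147 reads of the list when each distinct sequence was counted once (95% Wilson interval 0.00152 to 0.00349%). A single sequence outside the group had 741106 of the reads of the list, so this share depends largely on 1 sequence. PotatoMir1003902287 carried 68.2% of the reads of the group. By reads it was in place 120 of 222, with fewer reads in 100 sequences, and the median of the list was 17.5 reads. It was nevertheless listed at more loci than any other sequence, with 12 loci against 8 for the next 2 sequences. Among the 44 sequences with more than 1 locus the median was 17 reads, and 20 of them had fewer than 15.

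**Figure D1:**
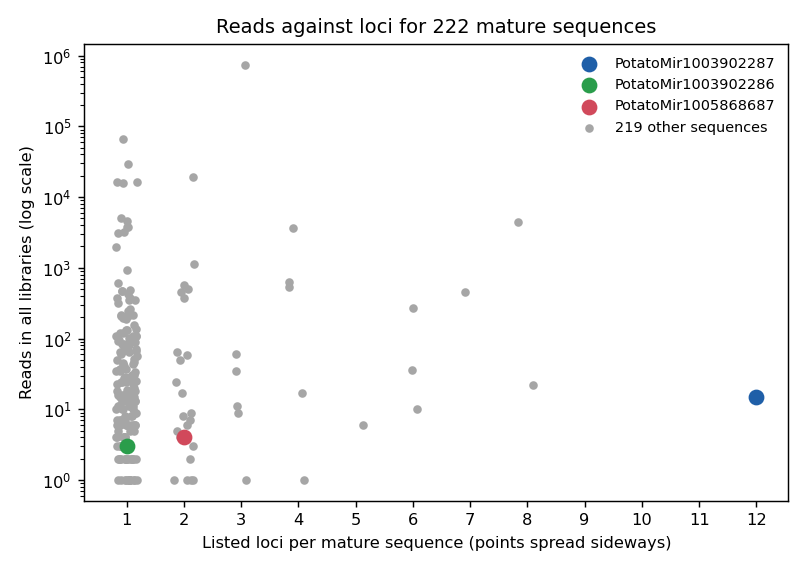
Each point is 1 of the 222 distinct mature sequences, with the number of its listed loci on the horizontal axis (grey points are spread sideways) and its reads in all libraries on a log scale. PotatoMir1003902287 stands alone at 12 loci with 15 reads, and its relatives lie at 3 and 4 reads with 1 and 2 loci.

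The reads could not be divided among the loci. The authors aligned sequences to every perfect match, so each read of PotatoMir1003902287 fits all 12 of its loci and the mean is only 1.25 reads per locus. Per listed locus PotatoMir1005868687 had 2 reads and PotatoMir1003902286 had 3. The 20 nt PotatoMir1003902286 is contained in 13 precursors of the list, its own and the 12 of PotatoMir1003902287, although it was listed at 1 of them. The base that follows it in the genome lies outside the listed precursor and was not analysed here.

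The 15 loci lay on 5 superscaffolds of the DM potato genome, and no other entry of the list lay on these superscaffolds. DM is a doubled monoploid of group *Phureja* and not the clone of the libraries. Loci, distances and precursors are thus those of the DM assembly, and the genome of the sequenced clone was not analysed here. They are named here by the last digits of the superscaffold and a letter in the direction of transcription. All loci of 1 superscaffold were on the same strand. Whether they lie in genes, exons or introns was not analysed here. RefSeq (assembly SolTub_3.0) holds 8 miRNA genes with a MIR395 symbol and lengths of 69 to 75 nt, but its table names no chromosome or superscaffold for them, and the listed loci were not matched to these genes.

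On the minus strand of PGSC0003DMB000000142, S142a had a precursor from 852077 to 852148 and S142b from 851901 to 851972. The 5′ ends of their mature sequences were 176 bases apart. Both carried PotatoMir1003902287.

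On the minus strand of PGSC0003DMB000000424, S424a lay from 504035 to 504109, S424b from 503856 to 503927 and S424c from 503499 to 503568. The first 2 carried PotatoMir1003902287 and the last was the only locus of PotatoMir1003902286. Their mature 5′ ends were 179 and 358 bases apart. A group with nearly the same spacing was found on the plus strand of PGSC0003DMB000001338, where S1338a (2287 to 2358), S1338b (2452 to 2523) and S1338c (2809 to 2880) all carried PotatoMir1003902287. There the distances were 165 and 357 bases.

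The loci of the other superscaffolds were farther apart. On the plus strand of PGSC0003DMB000000314, S314a (614053 to 614123) carried PotatoMir1005868687. S314b (628405 to 628476) followed after 14353 bases and S314c (629598 to 629669) after another 1193 bases, both with PotatoMir1003902287. On the plus strand of PGSC0003DMB000001046, S1046a (2237 to 2305), S1046c (14957 to 15025) and S1046d (20452 to 20526) carried PotatoMir1003902287 and S1046b (11055 to 11125) carried PotatoMir1005868687. Their distances were 8820, 3900 and 5501 bases. PotatoMir1005868687 was thus found on the 2 superscaffolds with the wide spacing.

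Of the 10 distances between neighbours, 5 were under 400 bases and the median was 775.5 bases. With a limit of 5000 bases between precursors the loci formed 5 clusters with 12 loci, 1 on each superscaffold, and 3 loci lay outside. Another listed precursor on the same strand within this distance was found for 12 of the 15 loci (95% Wilson interval 54.8 to 93.0%), compared with 9.88% of all 324 loci. Loci of 1 sequence share their origin, so this interval covers counting error only and the shares were not tested against each other. With a limit of 1000 bases there were 3 clusters, on PGSC0003DMB000000142, PGSC0003DMB000000424 and PGSC0003DMB000001338.

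**Figure D2:**
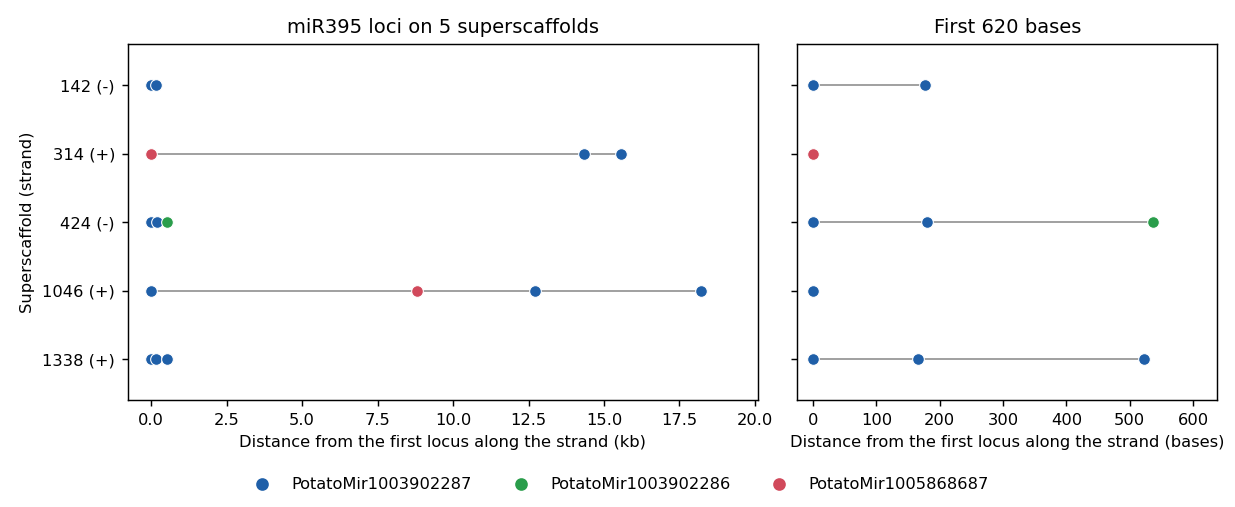
The 15 loci are drawn as points by the distance of their mature 5′ end from the first locus on the same superscaffold, in kb (left) and enlarged in bases (right). The last loci S142b, S424c and S1338c lie 176, 537 and 522 bases from the first on their superscaffolds, and S314c and S1046d lie 15546 and 18221 bases away.

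For PotatoMir1003902287 alone the distances ranged from 165 to 12720 bases on 5 superscaffolds. For comparison, the 6 loci of the miR399 sequence PotatoMir1003753189, from a family of phosphate nutrition, lay on 1 superscaffold with distances from 4186 to 17782 bases. The 8 loci of the miR169 sequence PotatoMir1004934921, from a family that acts on NF-Y transcription factors, lay on 3 superscaffolds with distances from 229 to 10650 bases. Read numbers were 15 for PotatoMir1003902287, 36 for the miR399 sequence and 4484 for the miR169 sequence.

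The precursors were 69 to 75 nt long, with a median of 72 nt, compared with 42 to 226 nt and a median of 85 nt in the whole list. The mature sequence was the 3′ end of the precursor at 15 of 15 loci (79.6 to 100%), and this was the case for 48.5% of all loci. The loci share their origin, so this interval covers counting error only. The miR399 sequence also lay on the 3′ arm, and the miR169 sequence lay on the 5′ arm. Representative precursors are shown with the mature sequence in capitals, to let the parts that varied be read beside the part that did not.
S142a and S142b: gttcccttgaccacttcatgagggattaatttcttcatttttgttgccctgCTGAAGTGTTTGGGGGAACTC
S314c and S1338c: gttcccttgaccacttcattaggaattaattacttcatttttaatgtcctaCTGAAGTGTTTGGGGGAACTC
S314a: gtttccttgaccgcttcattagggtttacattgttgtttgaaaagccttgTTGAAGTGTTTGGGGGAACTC
S424a: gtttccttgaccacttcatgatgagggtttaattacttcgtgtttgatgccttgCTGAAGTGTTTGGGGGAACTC
S424c: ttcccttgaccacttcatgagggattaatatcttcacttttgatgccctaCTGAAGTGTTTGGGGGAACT
S1046c: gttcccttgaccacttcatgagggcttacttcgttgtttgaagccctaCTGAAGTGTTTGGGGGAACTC

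The 15 loci had 12 distinct precursors. S142a was identical to S142b, 176 bases away, and S1338a to S1338b, 165 bases away. S314c was identical to S1338c, on another superscaffold. The precursors of PotatoMir1005868687, S314a and S1046b, differed by 1 base (C29G, counted from the precursor's 5′ end), although they too lay on different superscaffolds.

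Over all 105 pairs the median identity was 85.3%, with a range of 74.0 to 100%. The star sequence and the part between star and mature sequence were compared separately, since the rule did not use them directly. The star sequence pairs with the shared mature sequence and loci were selected by their folds, so its identity is in part set by the selection. The star sequences had a median identity of 90.9%. The part between them, 27 to 33 nt long, had a median of 72.4%. Pairs on the same superscaffold had a median precursor identity of 85.6% (16 pairs) and pairs on different superscaffolds 85.3% (89 pairs), so precursors of 1 superscaffold were on the median about as different as those of 2 superscaffolds.

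The precursors of PotatoMir1005868687 had a lower median identity to the other 13 than these had to each other. Against the other 13 it was 78.1% (26 pairs, 74.0 to 87.3%), compared with 87.5% among the other 13 (78 pairs, 81.3 to 100%). In the part between star and mature sequence the medians were 60% against the other 13 and 74.6% among them. S1046a, which carries PotatoMir1003902287, was the closest to the precursors of PotatoMir1005868687. It had 87.3% identity with S314a and 85.9% with S1046b, and shared with them A13G and G20T, counted from the 5′ end of the most common star sequence. S1046c followed with 84.5% to S314a and 83.1% to S1046b, and S424a had 81.6% with both. Of the other 12 precursors only S1046c was closer to S1046a than S314a was, with 91.3%, followed by S314b with 86.3%, and the lowest was S424c with 82.2%. S1046a and S1046c had the shortest precursors, with 69 nt. These pairs share members, so the ranges are descriptions and were not tested.

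**Figure D3:**
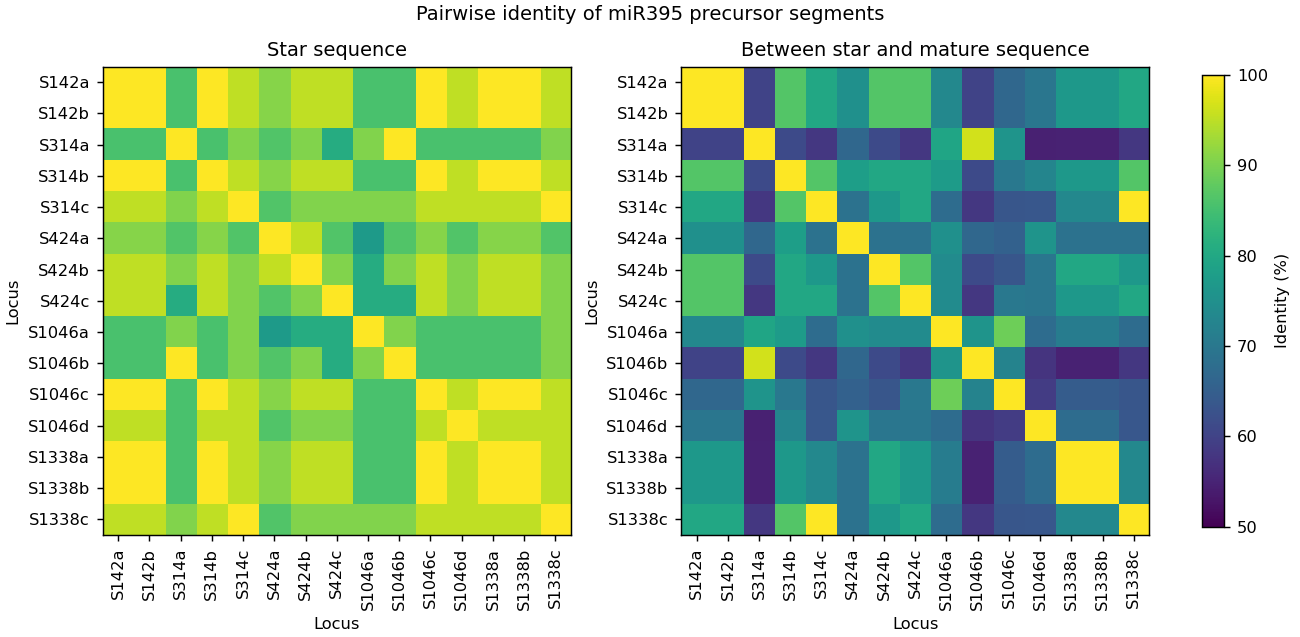
Colours give the percent identity of each pair of the 15 loci for the star sequence (left) and for the part between star and mature sequence (right). The star sequences range from 77.3 to 100% and the part between from 54.5 to 100%. In the part between, S314a and S1046b have a median of 60% against the other loci.

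In the compared families the same measure differed widely. The precursors of PotatoMir1003902287 had a median identity of 87.1% over 66 pairs, the miR399 precursors 98.4% over 15 pairs and the miR169 precursors 63.7% over 28 pairs. The part between star and mature sequence had medians of 73.3% for PotatoMir1003902287, 95.5% for miR399 and 49.2% for miR169. These families were not tested against each other.

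The 3′ end of each star sequence was read from the fold of its precursor with RNAfold at 37 °C, so that the star had a 3′ overhang of 2 nt. Its 5′ end was the first base of the precursor as listed by the authors. There were 8 distinct star sequences, 20 to 22 nt long. The most common was found at 6 loci. In the others capitals mark the bases that differ from it.
S142a, S142b, S314b, S1046c, S1338a and S1338b: gttcccttgaccacttcatga
S314c and S1338c: gttcccttgaccacttcatTa
S314a and S1046b: gttTccttgaccGcttcatTa
S1046a: gttcTcttgaccGcttcatTa
S1046d: gttcccttgaccacttcatCa
S424b: gttTccttgaccacttcatga
S424a: gttTccttgaccacttcatgat
S424c: ttcccttgaccacttcatga

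Substitutions were counted from the 5′ end of the most common star sequence. C4T was found at 4 loci, A13G at 3 loci and C5T at 1 locus. Each of them lay opposite a mature base, at mature positions 16, 7 and 15, and each replaced a Watson-Crick pair by a G:U pair. None of them opened a pair, but the authors had already selected the loci by their folds. The remaining substitutions, G20T at 5 loci and G20C at 1 locus, lay in the 3′ overhang, which does not pair with the mature sequence. S424c lacked the first base of the star sequence because its listed precursor begins 1 base later, and its mature sequence was 1 nt shorter.

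The pairing was nearly the same at all loci. Mature positions 11, 12 and 13 formed G:U pairs and position 9 was unpaired at 15 of 15 loci. Position 1 was unpaired at 14 loci and paired only at S424a, whose star sequence was 1 nt longer and whose duplex had an asymmetric bulge of 1 nt. Position 1, the base in which PotatoMir1005868687 differs from PotatoMir1003902287, was thus unpaired at every locus of these sequences but S424a. In total each duplex had 12 to 14 Watson-Crick pairs, 3 to 5 G:U pairs and 1 or 2 unpaired mature bases. The loci with 5 G:U pairs were S314a, S1046a and S1046b.

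**Figure D4:**
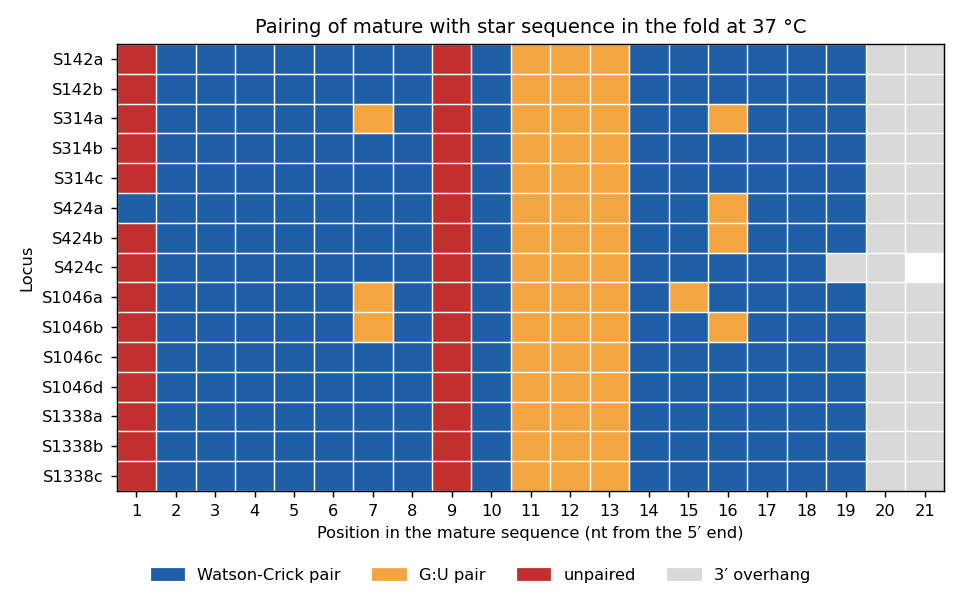
For each locus (rows) and each position of the mature sequence in nt from the 5′ end (columns), the colour gives a Watson-Crick pair, a G:U pair, an unpaired base or the 3′ overhang in the fold at 37 °C. The columns 9 and 11 to 13 are uniform over the 15 loci, and G:U pairs occur at position 7 in 3 loci, at 15 in 1 locus and at 16 in 4 loci.

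In the whole list at least 3 G:U pairs were found at 26.2% of the loci, an unpaired position 1 at 23.1% and an unpaired position 9 at 13.3%. These features were picked after the duplexes had been seen. As the mature sequence is shared, the 15 loci do not count as independent cases.

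The duplex criteria for plant miRNAs were met at 15 of 15 loci, compared with 81.8% of all loci. A duplex met them with at most 4 mismatched mature bases and at most 1 asymmetric bulge, of 2 nt or less. Opposite arms and the 3′ overhang were not tested. The star sequence was placed on the opposite arm, with 1 end set by this overhang and the other by the end of the listed precursor. A locus without a readable star sequence, or whose mature sequence paired with itself, failed. G:U pairs were accepted. When G:U pairs were counted as mismatches, 0 of the 15 loci met them, compared with 53.7% of all loci. The 12 loci of PotatoMir1003902287 and the 6 loci of the miR399 sequence then all failed, and the miR169 sequence had 5 of 8 loci under both rules. The study's methods name these same criteria as a filter on its predictions, so meeting them was in part set by the selection. The share of all loci therefore also reflects how this reading of the folds differs from the study's, and it is no independent background.

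The minimum free energy of the precursors at 37 °C ranged from -35.10 kcal/mol at S1046c to -25.50 kcal/mol at S424b, with a median of -29.20. Per base the range was -0.509 to -0.354 kcal/mol with a median of -0.408, and the median of all loci was -0.430. Of the 15 loci, 14 lay between the quartiles of the list (-0.506 and -0.344), and S1046c lay just below. The standard deviation over loci was 0.038 for the group and 0.140 for the list. The 15 loci have only 12 distinct precursors, which are of similar length and share the mature sequence. They are thus not independent, and the spreads were not tested against each other.

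**Figure D5:**
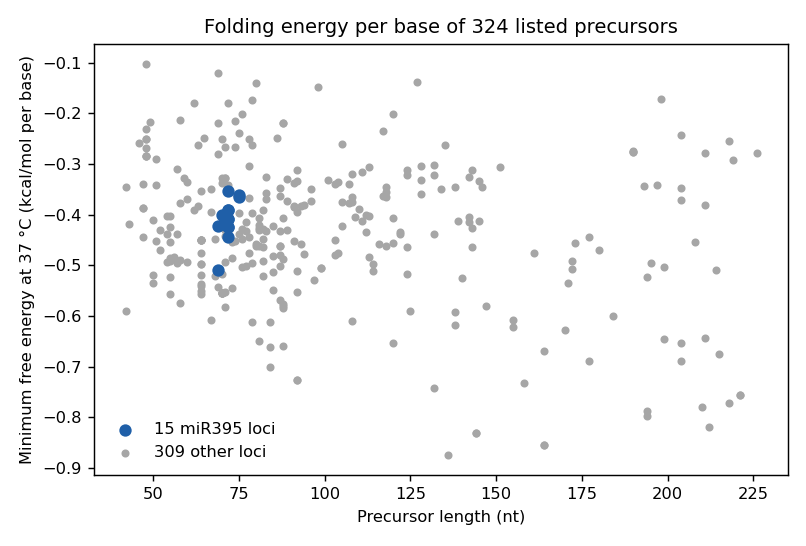
Minimum free energy per base at 37 °C against precursor length for the 15 miR395 loci and the 309 other loci. The miR395 loci form a narrow group of 69 to 75 nt, from -0.509 to -0.354 kcal/mol per base.

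Site sequences of 6 transcripts, 4 of them distinct, were taken from the stricter target prediction for PotatoMir1003902287. Nothing else of that prediction was used, and each site was paired again with the 3 mature sequences. No target RNA was measured. The sites are shown 5′ to 3′ in RNA letters, with capitals at the bases that form a G:U pair or a mismatch with PotatoMir1003902287.
PGSC0003DMT400071749 and PGSC0003DMT400071750: gaguucUcccaaacacuucaA
PGSC0003DMT400001067: aguuccUccaaacacuucaA
PGSC0003DMT400078158: aguucUUccaaacacuucaA
PGSC0003DMT400049122 and PGSC0003DMT400049123: gaUuuAccUcaaGcacuucag

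PGSC0003DMT400071749 and PGSC0003DMT400071750 are annotated as a sulfate/bicarbonate/oxalate exchanger and transporter, a protein that moves sulfate across membranes. Their site had 1 mismatch, at position 1 of PotatoMir1003902287, and 1 G:U pair at position 15. Each mismatch was scored 1 and each G:U pair 0.5. This score ran over the whole listed site, whereas the study's prediction scored a length of 17, so its cutoff does not apply here. PotatoMir1005868687 paired at position 1 and had a score of 0.5, against 1.5 for PotatoMir1003902287. PotatoMir1003902286 had 1.5 over its 20 nt.

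The listed sites of PGSC0003DMT400001067 and PGSC0003DMT400078158 have 20 nt, so base 21 of the longer sequences was not scored there. PGSC0003DMT400001067, a conserved gene of unknown function, had a score of 0.5 with PotatoMir1005868687 and 1.5 with PotatoMir1003902287. PGSC0003DMT400078158, also of unknown function, had 1 with PotatoMir1005868687 and 2 with PotatoMir1003902287. PGSC0003DMT400049122 and PGSC0003DMT400049123 are annotated as beta-mannosidase, an enzyme that cuts mannose from polysaccharides. Their site had mismatches at positions 16 and 19 and G:U pairs at positions 9 and 13, with a further G:U pair at position 1 for PotatoMir1005868687. The score was 3.5 for PotatoMir1005868687 and 3 for PotatoMir1003902287. Positions 10 and 11, between which a plant miRNA cuts, were paired in all combinations.

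PotatoMir1005868687 thus had the lower score for 4 of the 6 transcripts and PotatoMir1003902287 for the 2 beta-mannosidase transcripts. The 6 transcripts hold only 4 distinct sites. As the 2 sequences differ only in their first base, the site base opposite it alone decided which score was lower. The sites had been predicted for PotatoMir1003902287, and sequences under 5 reads were not in that prediction, so sites that fit only the other sequences were not searched. No ATP sulfurylase was among the 6 transcripts. The study's more relaxed target prediction was not used, and a search of the transcripts was not made here.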

How the data were processed

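Small RNAs of 12 libraries were sequenced and pooled by the authors. They trimmed reads and removed adaptors with Cutadapt (version 1.1 per the labels), took out reads of other structural RNA classes (rRNA, tRNA, snRNA, snoRNA), aligned sequences without mismatches to the DM superscaffolds with Bowtie and predicted miRNAs with RNAfold and miRDeep-P. Other versions are not given in the sources used here. The deposited list gives positions and, inside each identifier, a count of reads identical to the mature sequence, without normalization. The minimum of 5 reads in the study's methods is not applied in it. Depth of single libraries is unknown.

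The members and lists were chosen with earlier results of these data known. The text names every member and its loci, the nearest sequences outside the limit, a miR399 and a miR169 sequence for comparison, and the 6 transcripts. Precursors were folded with RNAfold 2.7.2 at 37 °C. Where a mature end was not paired, the star end was placed from the closest pair within 5 nt. Identity is the percent of columns in a global alignment (match 1, mismatch -1, gap penalty 2). Homologue names, target site sequences and transcript annotations come from the study's tables. Reads were compared with exact binomial tests (Benjamini-Hochberg over 3 pairs), and shares have Wilson intervals. Python 3.11.15, NumPy 2.4.6, SciPy 1.17.1, pandas 2.3.3 and Matplotlib 3.10.9 were used. On simulated data the procedures recovered 200 of 200 distances and 200 of 200 star sequences of hairpins with 1 mismatch. These hairpins were built with mature base 1 paired and without G:U pairs in the stem. They thus did not test star sequences of duplexes like those of the miR395 loci. Alternatives changed the limits, the fold temperature, the G:U rule, the alignment and the counting unit.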

Additional observations from a re-analysis of the deposited data

How the results depend on the processing

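Of 25 alternatives, 21 stayed within 1.5 times the count or within 1 standard deviation over loci or pairs. Some of them could not move, as the number of distinct target sites does not depend on the scoring. With at most 1000 bases between precursors there were 3 clusters in place of 5, and 8 loci in clusters in place of 12. With at most 20000 bases all 15 loci were in clusters. Summed over loci the reads were 191 in place of 22, because a sequence is then counted at each of its places. With G:U pairs as mismatches 0 of 15 precursors met the duplex criteria, since each has at least 3 such pairs beside its unpaired bases. At 20 °C the median minimum free energy was -0.563 kcal/mol per base in place of -0.408, while the 8 star sequences and the 15 loci that met the criteria were the same in number. With at least 5 reads 12 loci of 1 sequence remained, 9 of them in 4 clusters. The limit of 2 or 4 differences gave 15 loci, which was fixed in advance because no sequence lay between 1 and 10 differences. Read numbers of 3 and 4 limit any statement on the rare sequences. No paired analysis was possible because the list holds no values of single libraries.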
